A study of Mus musculus with 8 samples.

Results

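The genes described here encode the core protein families of pre-mRNA splicing. They were chosen by name alone, as every gene whose symbol starts with Srsf, Hnrnp, Snrp, Sf3a or Sf3b, and 52 of the 16308 genes in the expression table met this rule. They comprised 11 SR protein genes, 20 hnRNP genes, 12 snRNP protein genes and 9 SF3 genes. Expression was read in 2 libraries of mouse Th17 cells and 2 libraries of mouse naive CD4 T cells, all 4 named wild-type in the headers. Th17 cells, the helper cells that make interleukin-17, were cultured from naive cells for 72 h with antibodies to CD3ε (0.25 µg/mL) and CD28 (1 µg/mL) and the cytokines TGF-β (0.1 ng/mL) and IL-6 (20 ng/mL), and the naive cells were untreated. These are the values on each sample; elsewhere the labels give TGF-β as 0.1 to 5.0 ng/mL and name a culture of 48 h beside that of 72 h. A-to-I editing, in which ADAR enzymes turn adenosine into inosine that is read as guanosine, was listed per site for these 4 libraries. It was also listed for 2 libraries of Th17 cells lacking DDX5, an RNA helicase, and 2 further libraries of wild-type Th17 cells. These 2 are called WT below, and all 4 were under the same 72 h culture. All cells came from the C57BL/6 strain and all RNA was depleted of ribosomal RNA. The labels write the DDX5-deficient genotype as DDX5∆T and do not describe the deletion or say which libraries came from separate animals, so the p-values measure the spread between these libraries only.

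Splicing removes introns in a complex, the spliceosome, that is built anew on each intron. The U1 snRNP pairs with the start of the intron, and the U2 snRNP with its SF3a and SF3b proteins holds the branch point near its end. The U1 and U2 snRNPs each carry a ring of Sm proteins on their RNA. SR proteins bind exons and mostly favour the use of nearby splice sites, hnRNP proteins bind the nascent transcript and often oppose it, and the balance between them decides many alternative exons. In T cells the best known case is CD45, whose variable exons are skipped on activation under control of Hnrnpll and other hnRNP proteins.

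Transcripts of these genes held 4 adenosines with a listed editing event, and their surroundings are shown because they are the positions where the editing data touch this machinery. Each sequence is the transcript strand read 5′ to 3′ from GENCODE M21 on the mm10 build, with the edited adenosine in capitals and 12 bases on either side. All 4 lie in annotated 3′ UTRs. The Sf3a1 site is at chr11:4181542 on the plus strand within chr11:4181530-4181554, the Hnrnph1 site at chr11:50386071 on the plus strand within chr11:50386059-50386083, the Srsf10 site at chr4:135864698 on the plus strand within chr4:135864686-135864710, and the Sf3b2 site at chr19:5274427 on the minus strand within chr19:5274415-5274439.
Sf3a1: ggtacttagggcAagtcacatgccc
Hnrnph1: atgatagagcaaAgctgagtgaact
Srsf10: tatggaacattaAagcataagggaa
Sf3b2: tggcctgcctttAggctctttgtat

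Reads on genes numbered 26624436 and 11768994 in the Th17 libraries, against 20426728 and 16154625 in the naive libraries. The 52 genes took 1.39% and 1.43% of those reads in the Th17 libraries, against 1.26% and 1.29% in the naive libraries. The cells carried the markers of their labels: 4 Th17 genes (Il17a, Il17f, Ccr6, Il23r) summed to 3395 and 3161 CPM in Th17 libraries and to 0.159 and 0.0704 CPM in naive libraries, and 5 CD4 T cell genes summed to 1644 and 1462 CPM in Th17 libraries and to 4270 and 4933 CPM in naive libraries. CPM is the read count scaled to a common library size, here after TMM, a method that assumes most genes do not change. Markers of other cells were low: the sums over 6 genes each were 47.4 and 48.3 CPM in Th17 against 80.7 and 93.5 CPM in naive libraries for CD8 and NK cells, and 3.82 and 3.86 CPM in Th17 against 7.11 and 5.21 CPM in naive libraries for myeloid cells. The erythroid sum was 4.96 and 12.1 CPM in Th17 and 11.2 and 6.90 CPM in naive libraries. The sum over 5 B cell genes was 52.3 and 45.8 CPM in Th17 and 2.12 and 2.96 CPM in naive libraries, and Ebf1 alone made 51.9 and 44.6 CPM of it in the Th17 libraries while the defining genes Ms4a1 and Pax5 were near 0. The part of other cells in the results was not tested. In bulk libraries such as these, fewer cells of a type and less RNA per cell cannot be told apart.

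Splicing factor genes were called both higher and lower in Th17 cells, and how many were called turned with the test. In edgeR, of 51 that passed the low-count filter, 9 were called higher in Th17 cells, 13 lower and 29 neither. That is 17.6% higher and 25.5% lower, by the quasi-likelihood test of edgeR, with p-values adjusted by Benjamini-Hochberg over all 11989 tested genes and calls made under 0.05. The same test called 34.3% of all tested genes higher and 30.7% lower, or 65.1% in either direction, so the share of splicing factor genes called, 43.1%, lay below the background. DESeq2 on the same counts called 15 of 52 higher and 19 lower, where it called 34.6% and 28.0% of all genes with an adjusted p. That is 65.4% of the splicing factor genes against 62.6% of all, so the lower share does not hold in that test. By edgeR the changes were also smaller. The median size of the log2 fold change was 0.38 for these genes and 0.89 for all tested genes. Of the 51 genes 28, or 54.9%, changed by less than 0.5 on the log2 scale, against 30.6% of all tested genes. The sets were not matched for expression level, and its part in this difference was not tested. At a log2 change of at least 1, 4 genes were higher (Srsf9, Hnrnpll, Snrpa1 and Snrpd1) and 3 lower (Srsf6, Srsf12 and Sf3b1) in Th17 cells, where the background is 24.8% and 18.0%. In 16 genes both Th17 libraries lay above both naive libraries and in 25 both lay below, against 44.1% and 40.8% of all tested genes, and in 10 the groups overlapped. The authors' deposited table, made with DESeq2, called 14 of the 52 genes higher and 15 lower, where it called 31.0% and 26.7% of the genes with an adjusted p. It called 21 of the 22 genes above in the same direction, 55.8% of the splicing factor genes were called in it against 57.7% of all genes with an adjusted p, and the exception was Srsf12, with an adjusted p of 0.0912 in the authors' deposited table.

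**Figure D1:**
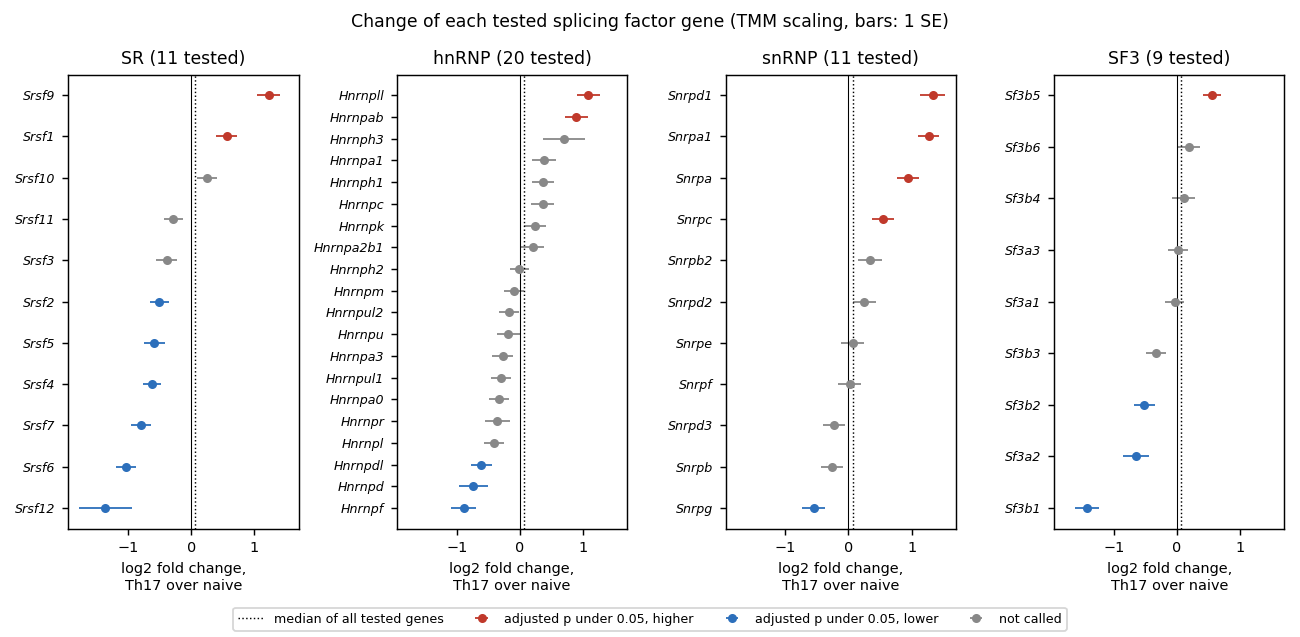
Log2 fold change, Th17 over naive (horizontal axis), for each of the 51 tested genes by class, with bars of 1 standard error. Red points were called higher, blue lower and grey were not called, and the dotted line is the median of all tested genes at 0.06. SR genes spread mostly to the left of it, and the snRNP genes mostly to the right.

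Scaling shifts all these values together. On plain library totals the median log2 change of all tested genes was 0.36 instead of 0.06, a shift of 0.30, and 18 splicing factor genes were called higher and 5 lower, where 43.3% and 21.8% of all tested genes were called. All 9 genes called higher with TMM were also higher on library totals, and 5 of the 13 called lower were also lower (Srsf6, Srsf7, Srsf12, Hnrnpf and Sf3b1). Since a scaling moves all genes by nearly the same amount, the distance of a class from the median of all genes is fixed by construction and is given as a description. The median of the SR class lay 0.57 below the median of all tested genes on TMM and on library totals, that of the hnRNP class 0.20 and 0.19 below, that of the SF3 class 0.10 below on both, and that of the snRNP class 0.19 above on both.

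**Figure D2:**
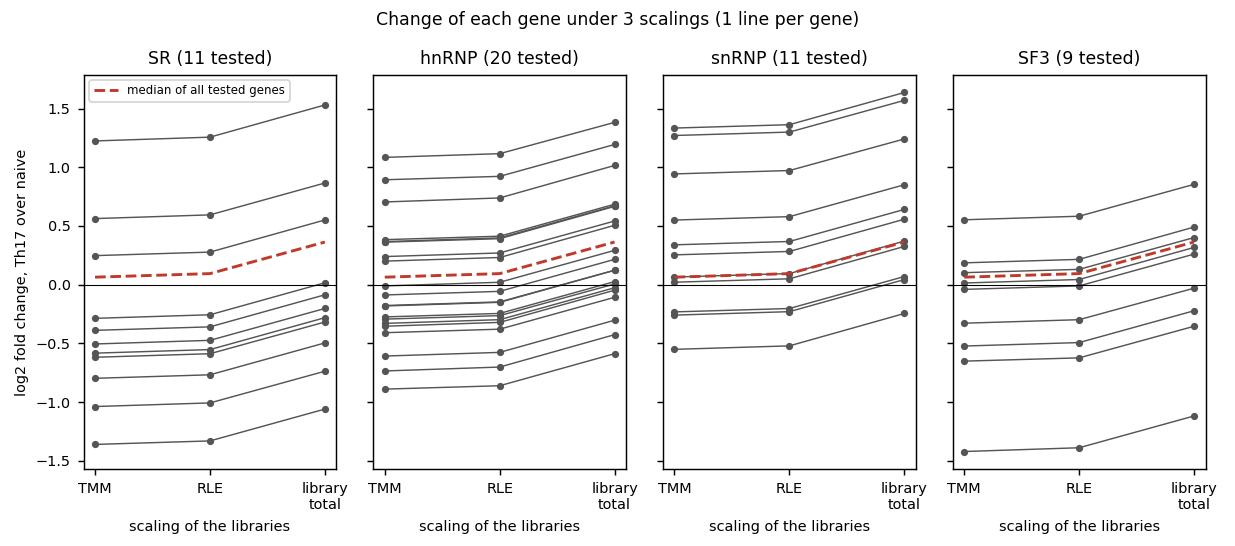
Log2 fold change, Th17 over naive (vertical axis), of each tested gene, 1 line per gene, under TMM scaling, DESeq2's RLE scaling and plain library totals. The dashed line is the median of all tested genes, at 0.06 with TMM and 0.36 on library totals, and the lines of the genes run alongside it.

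Of the 11 SR genes 2 were higher and 6 lower in Th17 cells, 72.7% called against 65.1% of all tested genes, with a median log2 change of −0.50. On library totals the split was 3 higher and 3 lower, or 54.5% called. Srsf6, an SR protein of the family with paired RNA-binding domains, stood at 187 and 193 CPM in Th17 libraries against 400 and 380 CPM in naive libraries. The groups were far apart and their libraries close together. The change was −1.04 on the log2 scale (SE 0.16, adjusted p = 0.00043 by edgeR's quasi-likelihood test). Srsf6 lies on the plus strand at chr2:162931528-162937121. Srsf7, which carries a zinc knuckle and also serves as an adaptor for mRNA export, had 145 and 135 CPM in Th17 libraries and 233 and 254 CPM in naive libraries, a log2 change of −0.80 (SE 0.15, adjusted p = 0.0017). Srsf4, an SR protein with a long tail of arginine and serine, had 75.1 and 71.8 CPM in Th17 libraries and 112 and 113 CPM in naive libraries, and its log2 change was −0.62 (SE 0.15, adjusted p = 0.0053). These 3 genes stayed lower and called with each of the 4 libraries left out in turn, although Srsf4 lost its call on library totals (adjusted p = 0.056).

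The other 3 lower SR genes lost their call when single libraries were left out. Srsf5 had the highest level of the class per kb of exon (88.3 CPM per kb in Th17 and 132 in naive cells). It had 354 and 350 CPM in Th17 and 514 and 541 CPM in naive libraries, a log2 change of −0.58 (adjusted p = 0.012 by edgeR). Here and below, per kb of exon counts all annotated exons of a gene joined, and the ranks depend on that length. Per kb of the transcript with the longest coding sequence, Srsf5 was again first and Srsf1 second. Srsf2, also known as SC35 and the second highest per kb of exon at 71.6 CPM per kb in Th17 and 102 in naive cells, had 205 and 219 CPM in Th17 and 299 and 301 CPM in naive libraries. Its log2 change of −0.50 had an adjusted p of 0.018, and the call was lost with any 1 of the 4 libraries left out and on library totals. Srsf5 lost its call without Th17 library 2 (adjusted p = 0.070) and on library totals (adjusted p = 0.094). Srsf12, the SR gene with the fewest reads, was at 1.80 and 1.89 CPM in Th17 and 4.51 and 5.00 CPM in naive libraries, which is 52 and 25 reads against 85 and 71 reads. Its log2 change was −1.36 (SE 0.42, adjusted p = 0.019), and it was not called without either naive library (adjusted p = 0.15 and 0.17), with no low-count filter (0.073) or with a minimum mean count of 10 (0.058).

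Srsf9 and Srsf1 went the other way. Srsf9, a short SR protein close in sequence to Srsf1, had 71.1 and 97.4 CPM in Th17 libraries and 35.6 and 36.4 CPM in naive libraries. The Th17 libraries differed more between themselves than the naive ones, but both lay far above. The log2 change was 1.22 (SE 0.18, adjusted p = 0.00042). Srsf1, the founding member of the family, had 316 and 367 CPM in Th17 libraries and 237 and 226 CPM in naive libraries, a log2 change of 0.56 (SE 0.16, adjusted p = 0.014). Without naive library 1 the adjusted p was 0.077 for Srsf9 and 0.10 for Srsf1, and without naive library 2 it was 0.078 and 0.14, and Srsf1 was also not called without Th17 library 2 (adjusted p = 0.10).

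The other 3 SR genes were not called. Srsf3, the smallest SR protein, had 266 and 246 CPM in Th17 and 308 and 363 CPM in naive libraries (log2 change −0.39, adjusted p = 0.067). Srsf11 had 185 and 185 CPM in Th17 and 215 and 237 CPM in naive libraries (−0.29, adjusted p = 0.13), and Srsf10, known as a general repressor when dephosphorylated, 126 and 124 CPM in Th17 and 96.5 and 114 CPM in naive libraries (0.25, adjusted p = 0.19). Their groups did not overlap, but the differences missed the threshold.

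The changes within the class altered its composition. The summed level of the 11 SR genes was 1932 and 1992 CPM in Th17 libraries and 2454 and 2571 CPM in naive libraries, a ratio of 0.781. That ratio depends on the TMM scaling. Of all reads on genes, the class took 0.209% and 0.223% in Th17 libraries and 0.226% and 0.226% in naive libraries. As a share of the reads on SR genes, which is free of the scaling but not corrected for gene length, Srsf1 took 16.4% and 18.4% in Th17 libraries against 9.66% and 8.77% in naive libraries. Srsf6 took 9.68% and 9.69% in Th17 libraries and 16.3% and 14.8% in naive libraries. Srsf9 took 3.68% and 4.89% in Th17 libraries and 1.45% and 1.42% in naive libraries. In Th17 libraries only Srsf5 took more reads than Srsf1, and only in library 1, whereas in both naive libraries Srsf5, Srsf6, Srsf3 and Srsf2 all took more.

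**Figure D3:**
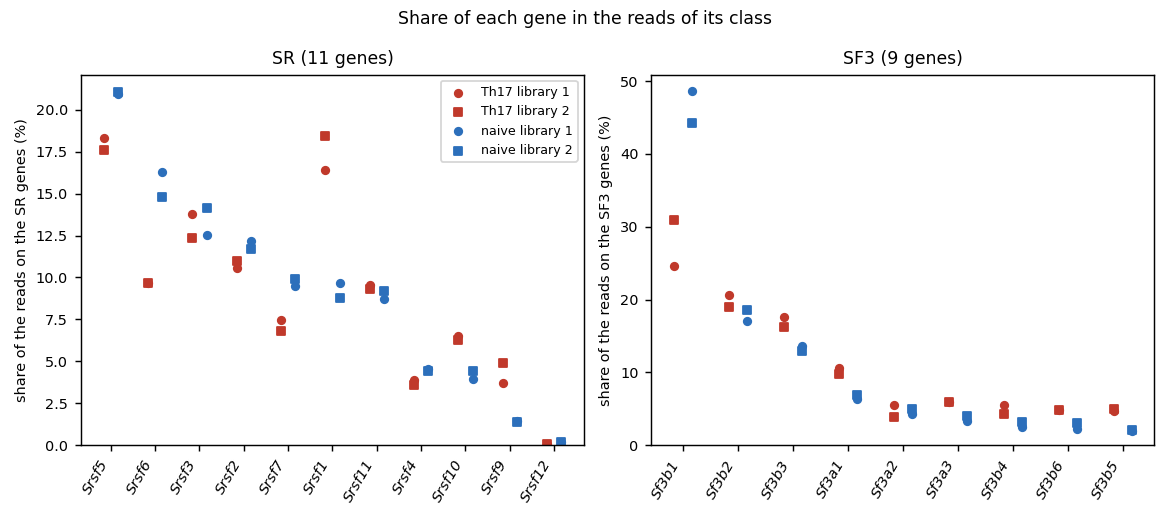
Share of the reads of a class that fell on each gene (percent, vertical axis), for the 11 SR genes and the 9 SF3 genes, with Th17 libraries in red left of naive libraries in blue. Srsf1 and Srsf9 hold larger shares in Th17 libraries and Srsf6 smaller ones, and Sf3b1 falls to 24.7% and 30.9% in Th17 libraries, against 48.6% and 44.2% in naive libraries.

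Of the 20 hnRNP genes 2 were higher, 3 lower and 15 not called in edgeR, 25.0% called against 65.1% of all tested genes, and DESeq2 called 13 of the 20, or 65.0%, against 62.6%. The edgeR fit gave a median log2 change of −0.13. On library totals 7 were higher and 1 lower, and the median was 0.17. Their summed level was 8181 and 8296 CPM in Th17 and 7862 and 8568 CPM in naive libraries, a ratio of 1.00. Without TMM, they took 0.886% and 0.930% of all reads on genes in Th17 libraries, against 0.725% and 0.753% in naive libraries. Hnrnpll, which binds the variable exons of CD45 and favours their skipping, had 83.4 and 94.0 CPM in Th17 libraries and 47.6 and 35.9 CPM in naive libraries. Both Th17 libraries lay well above both naive ones. The log2 change was 1.08 (SE 0.18, adjusted p = 0.00079), and the gene was called higher under every alternative tried. It lies on the minus strand at chr17:80029487-80062334. Hnrnpab, an RNA-binding protein related to Hnrnpd and the second highest of the class per kb of exon, had 655 and 539 CPM in Th17 libraries and 297 and 345 CPM in naive libraries. Its log2 change was 0.89 (SE 0.18, adjusted p = 0.0025), and without naive library 1 the adjusted p was 0.056.

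Hnrnpf, Hnrnpd and Hnrnpdl were lower in Th17 cells. Hnrnpf, which binds runs of guanines near splice sites, had 354 and 290 CPM in Th17 libraries against 528 and 664 CPM in naive libraries, a log2 change of −0.89 (SE 0.19, adjusted p = 0.0034) that was called under every alternative tried. Hnrnpd, also known as AUF1 and best known for binding AU-rich elements of unstable mRNAs, had 100 and 159 CPM in Th17 libraries and 213 and 217 CPM in naive libraries. The Th17 libraries were far apart, yet both lay below the naive ones. The log2 change was −0.74 (SE 0.22, adjusted p = 0.021), and the call was lost without Th17 library 1 (adjusted p = 0.096), without naive library 1 (0.23), without naive library 2 (0.22) and on library totals (0.19). Its paralogue Hnrnpdl had 176 and 205 CPM in Th17 libraries and 278 and 301 CPM in naive libraries, with a log2 change of −0.61 (SE 0.16, adjusted p = 0.0096). Its call was lost in the same 4 settings, with adjusted p from 0.063 to 0.12.

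Several abundant hnRNP genes were among the 15 not called by edgeR, while Hnrnpab and Hnrnpf, also abundant, were called. The authors' deposited table called 11 of the 20 hnRNP genes, or 55.0%, against 57.7% of all genes with an adjusted p. Among them were Hnrnpa1, Hnrnpk, Hnrnpl, Hnrnph1, Hnrnpc and Hnrnph3, which edgeR did not call. Hnrnpa1, a repressor of exon inclusion, was the highest of the class per kb of exon (297 CPM per kb in Th17 and 228 in naive cells). Per kb of the transcript with the longest coding sequence, Hnrnpa2b1 was first and Hnrnpa3 second. Hnrnpa1 had 988 and 884 CPM in Th17 and 665 and 770 CPM in naive libraries (log2 change 0.38, adjusted p = 0.096 by edgeR). Hnrnpa2b1, a reader of RNA methylation marks as well as a splicing factor, had 1059 and 1161 CPM in Th17 and 906 and 1024 CPM in naive libraries (0.20, adjusted p = 0.36). Hnrnpk, which binds runs of cytosines, had 834 and 865 CPM in Th17 and 701 and 739 CPM in naive libraries (0.24, adjusted p = 0.25). For Hnrnpa1, Hnrnpa2b1 and Hnrnpk both Th17 libraries lay above both naive ones. On library totals all 3 were called higher, with log2 changes of 0.69, 0.51 and 0.54. Hnrnpu, a scaffold protein of the nucleus, had 643 and 721 CPM in Th17 and 748 and 798 CPM in naive libraries (−0.18, adjusted p = 0.39). Hnrnpl, the closest relative of Hnrnpll and a repressor of the same CD45 exons, had 407 and 389 CPM in Th17 and 514 and 542 CPM in naive libraries, and its log2 change of −0.41 came close to the threshold (adjusted p = 0.053). Hnrnpll and Hnrnpl thus had log2 changes of opposite sign, 1.08 and −0.41, of which only the first passed the edgeR test. On library totals they were 1.38 and −0.11, with adjusted p of 0.0021 and 0.47 by edgeR. In the authors' deposited table, made with DESeq2, both were called, at 1.12 and −0.38 (adjusted p = 8.2e-07 and 0.0043).

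The remaining 10 uncalled hnRNP genes had log2 changes between −0.35 and 0.70. Hnrnph3 had the largest of these, 0.70 with an SE of 0.33, and the widest gap between Th17 libraries, with 40.7 and 78.1 CPM in Th17 against 36.7 and 35.9 CPM in naive libraries. Without Th17 library 1 its adjusted p was 2.5e-06. Hnrnph1, which binds runs of guanines like Hnrnpf, had 369 and 447 CPM in Th17 and 311 and 322 CPM in naive libraries (0.37, adjusted p = 0.087), and Hnrnpc, which binds runs of uridines, 512 and 483 CPM in Th17 and 338 and 436 CPM in naive libraries (0.36, adjusted p = 0.11). Hnrnph2 was at 91.0 and 98.7 CPM in Th17 and 93.9 and 97.0 CPM in naive libraries (−0.01, adjusted p = 0.95), with the groups overlapping. The log2 change was −0.09 for Hnrnpm, −0.18 for Hnrnpul2, −0.27 for Hnrnpa3, −0.29 for Hnrnpul1, −0.33 for Hnrnpa0 and −0.35 for Hnrnpr, none of them called.

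Of the 11 snRNP protein genes tested, 4 were higher and 1 lower in Th17 cells, with a median log2 change of 0.25. That is 36.4% higher and 9.09% lower, against 34.3% and 30.7% of all tested genes. On library totals 6 were higher and 0 lower. Proteins particular to the U1 and U2 snRNPs made up 3 of the 4 higher genes. Snrpa1, a protein bound to U2 RNA, had 98.7 and 82.1 CPM in Th17 libraries and 35.7 and 39.4 CPM in naive libraries. The groups were well separated, with a log2 change of 1.27 (SE 0.17, adjusted p = 0.00018) that was called under every alternative tried. The gene lies on the plus strand at chr7:66059003-66074587. Snrpa, the U1 protein A, which binds a loop of U1 RNA, had 129 and 101 CPM in Th17 and 57.9 and 62.0 CPM in naive libraries, a log2 change of 0.94 (SE 0.17, adjusted p = 0.0013). Snrpc, the U1 protein C, which steadies the pairing of U1 with the splice site, had 76.8 and 64.0 CPM in Th17 and 43.8 and 52.5 CPM in naive libraries, a log2 change of 0.55 (SE 0.17, adjusted p = 0.019). Neither gene was called without naive library 1 or without naive library 2, with adjusted p of 0.059 and 0.053 for Snrpa and 0.14 and 0.069 for Snrpc, and Snrpc was also not called without Th17 library 1 (0.12) or with no low-count filter (0.051). Snrpb2, the partner of Snrpa1 on U2 RNA, had 67.1 and 53.0 CPM in Th17 and 40.5 and 54.6 CPM in naive libraries, with overlapping groups (0.34, adjusted p = 0.15).

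Of the 7 tested Sm genes, whose proteins form a ring in fixed proportion, 1 was higher, 1 lower and 5 were not called. That is 28.6% called, against 65.1% of all tested genes. Snrpd1 had 87.4 and 73.3 CPM in Th17 libraries and 26.5 and 37.5 CPM in naive libraries. The lowest Th17 library was well above the highest naive one, and the log2 change of 1.33 (SE 0.20, adjusted p = 0.00046) was called under every alternative tried. Snrpg went down, with 53.9 and 53.0 CPM in Th17 and 66.8 and 90.0 CPM in naive libraries, a log2 change of −0.55 (SE 0.18, adjusted p = 0.023). It was not called without naive library 2 (adjusted p = 0.068) or on library totals (0.22). The other 5 had log2 changes of −0.26 for Snrpb, −0.23 for Snrpd3, 0.02 for Snrpf, 0.07 for Snrpe and 0.25 for Snrpd2. Snrpb was the highest of the class per kb of exon, at 105 CPM per kb in Th17 and 125 in naive cells. It had 219 and 194 CPM in Th17 and 221 and 273 CPM in naive libraries. Snrpf, second by that measure, had 83.8 and 77.7 CPM in Th17 and 67.4 and 91.9 CPM in naive libraries. Per kb of the transcript with the longest coding sequence, Snrpb was again first and Snrpe second. Of the reads on snRNP protein genes, Snrpd1 took 8.02% and 7.66% in Th17 libraries and 3.36% and 3.76% in naive libraries, and Snrpb took 20.1% and 20.3% in Th17 libraries against 28.0% and 27.4% in naive libraries.

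Snrpn, an imprinted relative of Snrpb known mainly from neurons, failed the low-count filter. It had 11 and 148 reads in the Th17 libraries against 9 and 6 reads in the naive libraries, or 0.382 and 11.2 CPM in Th17 and 0.478 and 0.422 CPM in naive libraries. Th17 library 2 alone stood apart, and Th17 library 1 was at the naive level. Snrpn had an adjusted p of 0.18 in edgeR without the filter, 0.016 in DESeq2 and 2.2e-17 in edgeR without Th17 library 1, and 0.17 in the authors' deposited table. Several of these genes, among them Snrpb with Snrpn and Hnrnpa1, have close copies in the genome, and how the authors' counting treated reads that fit more than 1 place, and strand, is not given in the sources used here, so part of their counts is uncertain.

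**Figure D4:**
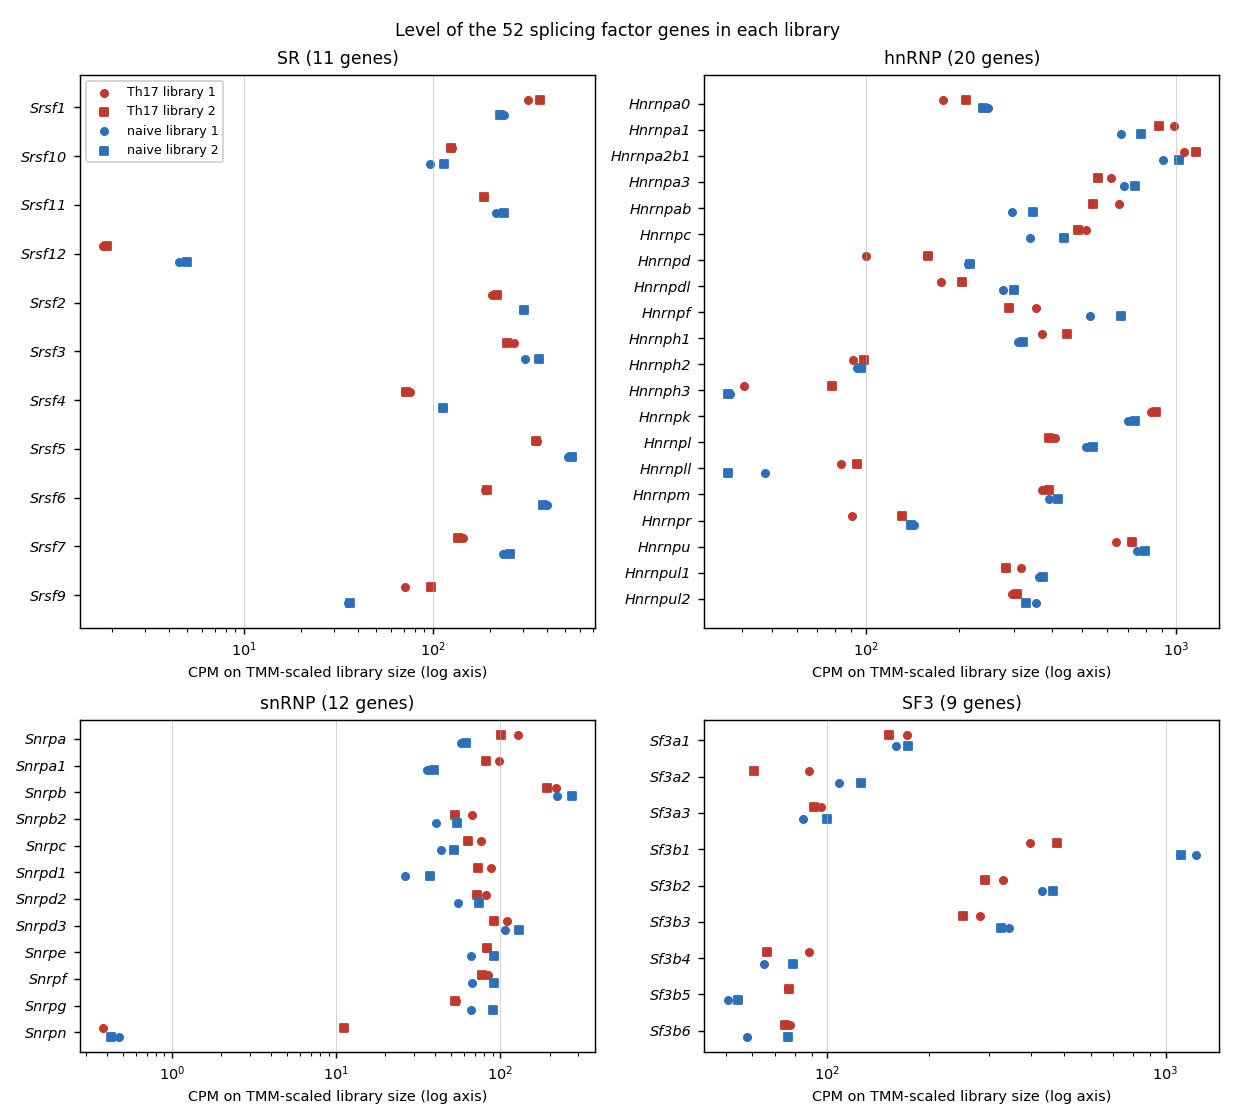
Level of each of the 52 genes in each library, in CPM on TMM-scaled library sizes on a log axis, with Th17 libraries in red above naive libraries in blue. Circles are library 1 and squares library 2 of a group. Sf3b1, Srsf6 and Snrpd1 show the groups well apart, and Snrpn shows Th17 library 2 alone at 11.2 CPM.

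Of the 9 SF3 genes 1 was higher and 3 lower in Th17 cells, with a median log2 change of −0.04. That is 11.1% higher and 33.3% lower, against 34.3% and 30.7% of all tested genes. On library totals 2 were higher and 1 lower, and the median was 0.26. The largest change was in Sf3b1, the scaffold of the SF3b complex that holds the branch point and a frequent site of mutation in blood cancers. It had 397 and 477 CPM in Th17 libraries against 1230 and 1110 CPM in naive libraries. Neither group came near the other, and naive cells had 2.68 times the Th17 level. The log2 change was −1.42 (SE 0.19, adjusted p = 0.00021), and the gene was called lower under every alternative tried, including library totals, where the change was −1.12. Sf3b1 lies on the minus strand at chr1:54985169-55027481. It was the highest of its class per kb of exon in naive cells, at 103 CPM per kb against 65.7 for Sf3b2, while in Th17 cells it had 38.4 CPM per kb against 45.7 for Sf3b2. Of all reads on SF3 genes it took 24.7% and 30.9% in Th17 libraries and 48.6% and 44.2% in naive libraries. The summed level of the class was 1608 and 1545 CPM in Th17 and 2533 and 2511 CPM in naive libraries, a ratio of 0.625. Without TMM, the class took 0.174% and 0.173% of all reads on genes in Th17 libraries, against 0.234% and 0.221% in naive libraries.

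Other subunits of the same complexes changed less and in both directions. Sf3a2, a subunit of the SF3a complex, had 88.0 and 60.6 CPM in Th17 and 109 and 125 CPM in naive libraries, a log2 change of −0.65 (SE 0.20, adjusted p = 0.020). Sf3b2, a partner of Sf3b4, had 331 and 293 CPM in Th17 and 431 and 466 CPM in naive libraries, a log2 change of −0.52 (SE 0.17, adjusted p = 0.021). Sf3b5, a small subunit, went up, with 76.7 and 77.2 CPM in Th17 and 50.7 and 54.3 CPM in naive libraries and a log2 change of 0.55 (SE 0.15, adjusted p = 0.0096). These 3 calls depended on single libraries: Sf3a2 was not called without Th17 library 2 (adjusted p = 0.13), naive library 1 (0.12) or naive library 2 (0.17), or with a minimum mean count of 10 (0.055), Sf3b2 without Th17 library 2 (0.16) or naive library 2 (0.058), and Sf3b5 without naive library 1 (0.057). Sf3a2 and Sf3b2 were also not called on library totals (0.14 and 0.17). The 5 uncalled SF3 genes had log2 changes of −0.33 (Sf3b3), −0.04 (Sf3a1), 0.01 (Sf3a3), 0.10 (Sf3b4) and 0.19 (Sf3b6, which contacts the branch point adenosine). Sf3b4 had 88.3 and 66.5 CPM in Th17 and 65.1 and 79.4 CPM in naive libraries, with overlapping groups.

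Other genes of the splicing machinery were read from 10 further lists. Of the kinases that phosphorylate SR proteins, 7 of 8 measured were lower in Th17 cells and 0 higher, with a median log2 change of −1.14, against backgrounds of 30.7% lower and 34.3% higher. All 7 were called lower with each library left out and on library totals. Srpk1, the main cytoplasmic SR protein kinase, had 180 and 158 CPM in Th17 and 480 and 483 CPM in naive libraries (log2 change −1.51, SE 0.16, adjusted p = 6.3e-05). Clk4, a nuclear kinase of the CLK family, had 40.9 and 36.6 CPM in Th17 and 97.0 and 115 CPM in naive libraries (−1.45, SE 0.17, adjusted p = 8.1e-05). Clk2 changed by −1.27 and Srpk2 by −1.17, and Clk1, Prpf4b and Dyrk1a were also lower. Clk3 was not called, at 156 and 151 CPM in Th17 and 167 and 167 CPM in naive libraries (−0.12, adjusted p = 0.48).

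**Figure D5:**
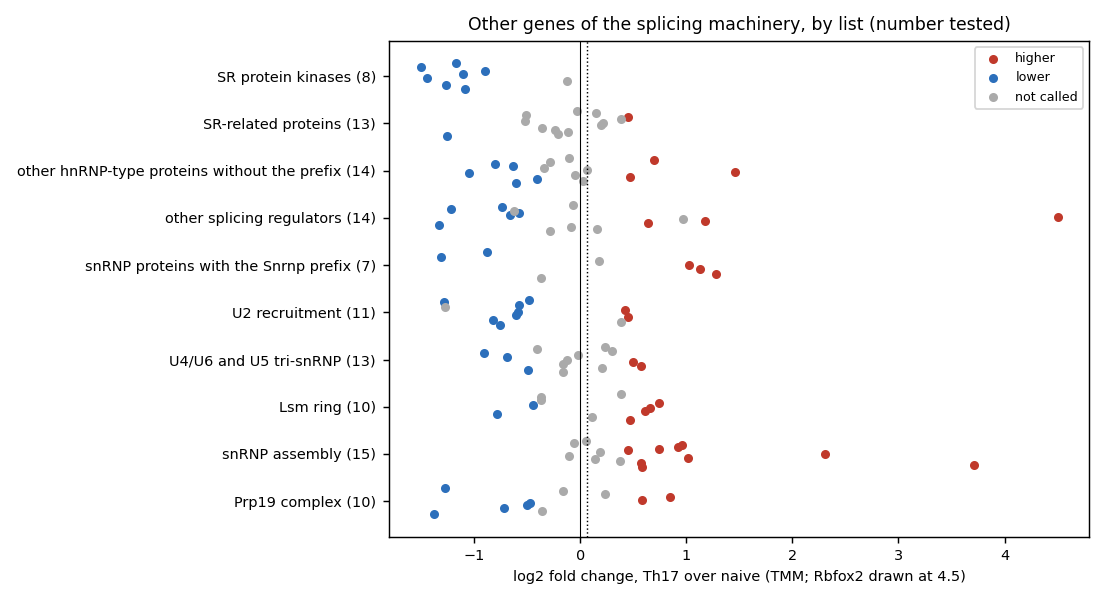
Log2 fold change, Th17 over naive (horizontal axis, TMM scaling), of each tested gene in the 10 further lists, with called genes in red (higher) and blue (lower), others in grey and the median of all tested genes dotted. Of the SR protein kinases 7 of 8 lie to the left and are called, and of the snRNP assembly genes 9 of 15 lie to the right and are called. Rbfox2, which had 2 and 0 reads in naive libraries, is drawn at 4.5.

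Of the genes whose products modify Sm proteins and load them onto snRNA, 9 of 15 tested were higher in Th17 cells and 0 lower, against backgrounds of 34.3% higher and 30.7% lower, with a median log2 change of 0.57. On library totals the split was 11 and 0, and the median was 0.87. Gemin8, a subunit of the SMN complex, had 25.0 and 14.5 CPM in Th17 and 3.40 and 4.65 CPM in naive libraries (log2 change 2.31, adjusted p = 0.00041). Gemin6 changed by 1.01, and Strap, which binds the SMN complex, by 0.96. Coprs, a cofactor of the arginine methyltransferase Prmt5, had 39 and 26 reads in Th17 and 3 and 1 reads in naive libraries (adjusted p = 0.0024). The number called rested on the naive libraries: it was 2 without naive library 1 and 3 without naive library 2, and only Strap was called with every library left out.

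The remaining lists, here and in the next paragraph, were mixed. Their counts stand beside a background of 34.3% of all tested genes higher and 30.7% lower. On library totals that background was 43.3% and 21.8%. Of the genes that recruit U2 to the branch point, 2 of 11 were higher and 7 lower (median −0.59), led by Zrsr1 at −1.28, Puf60 at −0.82, Ddx46 at −0.76 and Sf1, the branch point binding protein, at −0.61. On library totals the split was 3 and 3, and without Th17 library 2 it was 2 and 3. Of the Prp19 complex, which activates the spliceosome, 2 of 10 were higher and 5 lower (median −0.42), with Aqr at −1.37, Xab2 at −1.27, Isy1 at 0.84 and Cdc5l at −0.72, and 3 and 3 on library totals. Of the U4/U6 and U5 tri-snRNP genes, 2 of 13 were higher and 3 lower (5 and 2 on library totals), with Sart1 at −0.91, Prpf6 at −0.69, Ppih at 0.57 and Prpf31 at 0.50. Of the Lsm genes, whose proteins form Sm-like rings on RNAs such as U6, 4 of 10 were higher and 2 lower (5 and 1 on library totals, 0 and 2 without naive library 1), with Lsm11 at −0.78, Lsm5 at 0.74, Lsm3 at 0.66 and Lsm2 at 0.61. Without naive library 1 the numbers higher and lower were 0 and 5 for U2 recruitment, 1 and 4 for the Prp19 complex and 0 and 2 for the tri-snRNP, and without naive library 2 they were 0 and 6, 1 and 3 and 0 and 3.

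Among snRNP proteins with the Snrnp prefix, 3 of 7 were higher and 2 lower (4 and 2 on library totals, 2 and 2 without naive library 1, 2 and 3 without naive library 2). Snrnp70, another protein of the U1 snRNP, was lower, with 303 and 272 CPM in Th17 and 609 and 444 CPM in naive libraries (log2 change −0.87, adjusted p = 0.0041), whereas Snrpa and Snrpc of the same particle were higher. The minor spliceosome proteins Snrnp48, at −1.31, and Snrnp25 and Snrnp35, at 1.28 and 1.02, also differed in sign, and Snrnp27 of the tri-snRNP was at 1.13. Of SR-related proteins 1 of 13 was higher and 1 lower (5 and 1 on library totals): Srrm1 at 0.45 and Acin1 at −1.26. Of hnRNP-type proteins without the prefix, 3 of 14 were higher and 5 lower (3 and 1 on library totals), with Pcbp4 at 1.46, Pcbp3 at −1.04, Raly at −0.80 and Syncrip at 0.70. Of other splicing regulators, 3 of 14 were higher and 5 lower (4 and 3 on library totals). The muscleblind genes moved apart, with Mbnl1 at −1.33 (306 and 306 CPM in Th17, 801 and 743 CPM in naive libraries) and Mbnl3 at 1.17, and Rbm5 was at −1.22. Rbfox2 had 222 and 559 reads in Th17 and 2 and 0 reads in naive libraries (adjusted p = 0.044), a call lost without either naive library. Without naive library 1 the numbers higher and lower were 0 and 1 for SR-related proteins, 0 and 3 for the hnRNP-type proteins and 2 and 4 for the other regulators, and without naive library 2 they were 0 and 3, 1 and 3 and 1 and 4.

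Of 869 sites in the Th17 and naive table, of which 399 were listed for Th17 and 571 for naive cells, 3 lay in splicing factor genes, all listed for naive cells only. That is 0.345% of the sites, where these genes are 0.319% of the genes in the expression table. A naive-listed site was found in 3 of the 52 genes, or 5.77%, and in 1.62% of all genes in that table. These shares are not like for like, since a site needs reads to be listed. Of the 52 genes 51 passed the low-count filter, against 11989 of all 16308. The part of read depth in the difference was not tested. The adenosines shown above were edited in 21.2% and 15.0% of reads (Sf3a1), 7.01% and 6.71% (Hnrnph1) and 6.98% and 12.3% (Srsf10) in the naive libraries, and the table lists no Th17 level for them. Sf3a1, Hnrnph1 and Srsf10 were themselves not called in expression by edgeR with TMM. By edgeR on library totals Hnrnph1 (log2 change 0.67, adjusted p = 0.013) and Srsf10 (0.55, adjusted p = 0.011) were called higher. The authors' deposited table, made with DESeq2, also called Hnrnph1 higher (0.39, adjusted p = 0.0081). Sf3a1 was called in neither. The median level of the naive-listed sites was 18.9%, and the means of all 3 lay below it, with 275 (Sf3a1), 63 (Hnrnph1) and 124 (Srsf10) of the 571 sites lower still. Of all naive-listed sites 81.1% were in 3′ UTRs. The depth behind these naive levels is unknown, and a site missing for Th17 cells may lack reads or edited reads.

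In the table of DDX5-deficient and WT Th17 cells, 1 of 355 sites lay in a splicing factor gene. The Sf3b2 adenosine was edited in 3.85% and 4.61% of reads in DDX5-deficient libraries, against 6.35% and 8.65% in WT libraries. Both DDX5-deficient libraries lay below both WT libraries, with means of 4.23% ± 0.54 and 7.50% ± 1.63 (SD, n = 2 each) and a difference of −3.27 percentage points. In WT library 2 the level came from 9 of 104 reads, with an exact Clopper-Pearson 95% interval of 4.03% to 15.8% that covers counting error only. Of the 328 sites with a level in all 4 libraries, 78, or 23.8%, had both DDX5-deficient libraries below both WT libraries. At 64 sites both lay above, and the median difference was −1.02 percentage points. All 355 sites had a level in both WT libraries, but only 341 and 334 in DDX5-deficient libraries 1 and 2. The listing thus followed the WT libraries, and its part in the Sf3b2 difference was not tested. An exact permutation test with 2 libraries a group cannot reach 0.05, so none is given.

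Promoter windows of RefSeq on GRCm38.p6, from 250 bases before to 50 after the gene start, were found for 46 of the 52 genes, in 63 windows. The motif GGGCGG, on either strand, was in 68.3% of these windows and in 35.7% of all 32851 windows. CCAAT was in 44.4% against 37.4%, TATAAA in 11.1% against 13.6%, and CACGTG, the E-box letters, in 11.1% against 7.15%. These shares are not like for like, since all windows cover 27025 genes, more than the 16308 in the expression table. The part of expression in the differences was not tested. CACGTG occurred in windows of 6 genes. Of these 1 was called higher in Th17 cells (Snrpa), 2 lower (Hnrnpd and Hnrnpf) and 3 not called (Hnrnpa3, Hnrnph2 and Hnrnpm). Stretches around the motif in the called genes are given with the motif in capitals and 10 bases on either side, 5′ to 3′ on the gene's strand, so that the same letters can be seen in genes that moved in opposite directions. The Snrpa stretches are chr7:27195814-27195839 and chr7:27196329-27196354 on the minus strand, the Hnrnpd stretch is chr5:99978955-99978980 on the minus strand and the Hnrnpf stretch is chr6:117907715-117907740 on the plus strand.
Snrpa, first stretch: gcctttcgcgCACGTGgactaatggg
Snrpa, second stretch: tttcccatccCACGTGatagaactcg
Hnrnpd: gctccggagcCACGTGaccgggacgc
Hnrnpf: agcgggcgctCACGTGgcccgaggcg
The window of the second Snrpa stretch holds the motif once more. A match of letters is not a binding site, and no binding was measured here.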

How the data were processed

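Expression came from 1 table of 2 Th17 and 2 naive libraries with counts per gene deposited by the authors, called original per the file headers. The normalized signal, the log2 fold change with its standard error, the Wald score, the p-value and the adjusted p-value in that table are the authors', and of these the log2 fold change and adjusted p were read here for comparison. Per the submitters' processing notes, the mm10 build was used with DESeq2 1.18.1, featureCounts and STAR 2.6.1a. Their settings, the handling of multiply mapped reads and the use of strand are not given in the sources used here. The editing tables, made by the authors with SAILOR at a confidence of 0.99 per the labels, give the fraction of edited reads per site and library on a scale of 0 to 1, printed here as a percent, a confidence score per the file headers and a deposited coverage count. That coverage fits library 2 of the Th17 and of the WT cells only, where it gives whole numbers of edited reads (tolerance 0.01) at 100% of sites, against 6.52% to 7.92% in the other libraries.

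Of 16308 genes, 16295 matched GENCODE M21 by identifier, and 25 symbols that had become dates were restored. Counts were tested with edgeR 4.0.16 in R 4.3.3 (filterByExpr, TMM, robust quasi-likelihood fit on group alone, Benjamini-Hochberg adjustment over 11989 genes, call at an adjusted p under 0.05). The procedure was also run on simulated counts in which few genes changed. In these data many genes changed, so that run does not test the calls or the scaling here. Group values are means with SD over n = 2 libraries. Alternatives were RLE scaling, library totals, DESeq2 1.42.0, no filter, a minimum mean normalized count of 10, the replicate number as a block, and each library left out in turn. When a library is left out, the lone library of its group is assumed to vary like the other group. The sums over marker genes leave out Trac, which is not used here, and 2 genes that are not reported here.

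The genes, the further lists and the tests were chosen with earlier results of these data known. The text names, in each class, the 5 called genes with the largest changes, the 2 with the highest level per kb of exon, every gene not called, every gene with a listed site or below the filter and 16 genes of prior interest, and from each further list up to 4 called genes with the largest changes. Genes outside this rule, the kinases Clk1, Clk3, Prpf4b and Dyrk1a and the U1 protein gene Snrnp70, are named after their values were seen. Strand at naive-only sites is that of the annotated gene.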

Additional observations from a re-analysis of the deposited data

How the results depend on the processing

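Of the 22 called genes none changed sign under the 10 alternatives, and 7 were called in all of them: Hnrnpll, Snrpa1 and Snrpd1 higher, and Sf3b1, Srsf6, Srsf7 and Hnrnpf lower. Srsf4 was also called with each library left out. DESeq2 called 15 genes higher and 19 lower, with 7 and 6 of them hnRNP genes, where it called 34.6% of all genes higher and 28.0% lower, and library totals gave 18 and 5, with 3 SR genes lower, 7 hnRNP genes higher and 1 lower, no snRNP gene lower (0), and 2 SF3 genes higher and 1 lower. With 1 library left out the number higher ran from 3 to 10 in all, 0 to 2 for SR, 1 to 3 for hnRNP, 2 to 5 for snRNP and 0 to 1 for SF3 genes, and the number lower from 6 to 10 in all, 4 to 5 for SR, 1 to 4 for hnRNP, 0 to 1 for snRNP and 1 to 3 for SF3 genes. Leaving out a naive library cost most: 3 genes higher and 9 lower without naive library 1, and 5 and 6 without naive library 2. RLE scaling gave 9 and 13, no filter 8 and 12, and the minimum of 10 gave 9 and 11. The cause of these differences was not tested.

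Signs turned only in genes that were not called. On library totals the log2 changes became 0.26 (Sf3a1), 0.016 (Srsf11), 0.027 (Hnrnpa3), 0.29 (Hnrnph2), 0.22 (Hnrnpm), 0.12 (Hnrnpu), 0.0064 (Hnrnpul1), 0.12 (Hnrnpul2), 0.044 (Snrpb) and 0.070 (Snrpd3). Hnrnph2 was at 0.021 with RLE scaling and 0.014 in DESeq2, and without a filter Sf3a3 was at −0.015 and Snrpf at −0.0083. With 1 library left out the log2 changes ran from −0.16 to 0.048 (Sf3a1), −0.14 to 0.062 (Sf3a3), −0.15 to 0.29 (Sf3b4), −0.042 to 0.32 (Sf3b6), −0.072 to 0.015 (Hnrnph2), −0.19 to 0.24 (Snrpe) and −0.23 to 0.19 (Snrpf).

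The replicate numbers are shared by the groups, and the labels do not say that they pair libraries. Deviations of same-numbered libraries correlated at −0.0814. With 2 libraries a group, the deviations of a group mirror each other, so this value cannot settle whether libraries share a source. The numbers were not taken as pairs because the labels do not give them as such. With the replicate number as a block 9 genes were higher and 13 lower, and no call changed. A code shared by both libraries numbered 2 is unexplained in the labels.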

Other observations

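The spread between libraries of a group was small for these genes. The median ratio of the higher to the lower library was 1.12 between Th17 libraries and 1.09 between naive libraries, against 1.14 and 1.17 over all tested genes. A few genes stood apart in the Th17 pair. The ratio was 1.92 for Hnrnph3, 1.59 for Hnrnpd, 1.45 for Sf3a2 and for Hnrnpr and 1.37 for Srsf9, and Th17 library 2 was the higher of the pair for each of them but Sf3a2, which had 88.0 CPM in Th17 library 1 and 60.6 CPM in Th17 library 2.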
